A study of Mus musculus with 3 samples.

Results

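Il18, Peak1, Sin3a, Kif23, Dapk2 and Usp3 are 6 genes of mouse chromosome 9 that lie within 15 Mb of Chrnb4 and were at least 4-fold higher in summed expression in both mutant plates of sorted retinal cells than in the Wildtype plate. They were chosen by these ratios of summed CPM to the Wildtype plate, so their excess over the Wildtype plate is a description and not a finding. Chrnb4 itself was placed beside them and was not chosen for its level. The 7 genes are 7 of 31053 in the table, of which 493 lie within 15 Mb of Chrnb4. Expression is given as CPM, the counts of a gene scaled to the total counts of its plate or well.

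The cells were GFP+ cones sorted by fluorescence from papain-dissociated mouse retina with a viability dye, on 1 plate of single wells per mouse line, and all were labelled postnatal day 12. The Pde6ccpfl1 line carries the cpfl1 mutation of Pde6c, the catalytic subunit of the cone phosphodiesterase. The Cnga3-/- line lacks the CNGA3 subunit of the cone cyclic nucleotide-gated channel. The Wildtype line carries neither mutation. Cells of all 3 lines were sorted for GFP. The Wildtype library is named for Chrnb4-GFP, a reporter driven by the Chrnb4 gene's regulatory sequence. The Cnga3-/- and Pde6ccpfl1 libraries are named Cnga3-GFP and Pde6c-GFP, after the gene mutated in each line. The reporter of the mutant lines, and the number of animals pooled for a plate, are not given in the sources used here. The well names carry the tags P10 for the Pde6ccpfl1 plate, P08 for the Cnga3-/- plate and P11 for the Wildtype plate, whose meaning is not stated. With 1 plate per genotype, genotype cannot be told apart from plate, tag or sort, and no p-value between genotypes was computed.

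The 7 genes do unrelated work in the cell. Il18 encodes a cytokine of the interleukin 1 family, made as a precursor that caspase 1 cleaves during inflammation, and in mouse retina the cytokine has been studied mainly for its effects on blood vessels and inflammation. Kif23 encodes a kinesin of the centralspindlin complex, which bundles microtubules between separating chromosomes and is needed for the last step of cell division. Sin3a is the scaffold of a histone deacetylase complex that represses transcription, and Usp3 removes ubiquitin from histone H2A. Peak1 is a pseudokinase that acts in growth factor and cytoskeleton signalling, and Dapk2 is a calmodulin-regulated kinase linked to cell death and autophagy. Chrnb4 is the beta 4 subunit of nicotinic acetylcholine receptors. In the mature retina, cones no longer divide.

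In the GENCODE M21 annotation of mouse build GRCm38, all of these genes are on chromosome 9. Il18 spans positions 50554827 to 50581840 on the plus strand. Chrnb4 follows at 55028154 to 55048779 on the minus strand, Peak1 at 56201126 to 56418067 on the minus strand and Sin3a at 57072040 to 57128366 on the plus strand. Kif23 lies at 61915905 to 61946774 on the minus strand, Dapk2 at 66158223 to 66272242 on the plus strand and Usp3 at 66514637 to 66593142 on the minus strand. The gaps between the picked genes and Chrnb4 ran from 1.15 Mb for Peak1 to 11.5 Mb for Usp3, so the genes are scattered and not one block. Whether counting used strand is not given in the sources used here. Il18 overlaps Bco2 and Tex12, which had 4 and 2 counts over the 3 plates, and Chrnb4 overlaps the antisense gene Gm47877, which had 12, 12 and 10 counts in the Pde6ccpfl1, Cnga3-/- and Wildtype plates.

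Il18 and Kif23 were the most abundant of the 7 genes in both mutant plates and, as shown further on, the only pair of the 7 whose levels followed each other over the wells of both mutant plates with a rank correlation above 0.5. The 250 bases before their annotated starts are printed to show what these starts share and do not share. They are RefSeq sequence of build GRCm38.p6, in the direction of transcription, with capitals for matches to the motifs searched.
Il18, chr9:50554450-50554699, plus strand: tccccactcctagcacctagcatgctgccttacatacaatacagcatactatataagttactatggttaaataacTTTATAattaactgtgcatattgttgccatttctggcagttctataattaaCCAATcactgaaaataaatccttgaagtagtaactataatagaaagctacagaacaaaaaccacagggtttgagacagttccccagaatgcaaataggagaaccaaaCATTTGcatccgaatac
Kif23, chr9:61946800-61947049, minus strand: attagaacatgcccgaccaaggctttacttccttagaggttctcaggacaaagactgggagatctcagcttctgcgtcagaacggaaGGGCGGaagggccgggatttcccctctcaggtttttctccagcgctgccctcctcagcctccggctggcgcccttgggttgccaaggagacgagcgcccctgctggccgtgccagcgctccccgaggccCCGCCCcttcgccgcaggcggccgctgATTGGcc
Both strands were searched for the CRX/OTX core TAATCC, the cell cycle homology element TTTGAA, the CCAAT box CCAAT, the E-box CANNTG, the GC box GGGCGG and the TATA box TATAAA. The Il18 window held 1 CCAAT box, 1 E-box and 1 TATA box, the last on the reverse strand, and the Kif23 window held 1 CCAAT box on the reverse strand and 2 GC boxes. Of 32851 windows of the same table, 33.8% held CCAAT, 66.2% held the E-box, 12.4% held the TATA box, 32.7% held the GC box, 6.25% held TAATCC and 16.0% held TTTGAA. The CCAAT box was the only searched motif in both windows, and neither window held TAATCC or TTTGAA.

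Wells under 500 counted genes, or with over 30% mitochondrial counts, were left out. This kept 61 of 71 wells listed for the Pde6ccpfl1 plate, 70 of 76 for the Cnga3-/- plate and 52 of 61 for the Wildtype plate. The kept wells held 295011, 335499 and 273080 counts in that order of plates, with 1061 to 16935 counts per well. Cone markers were sparse. The 12 cone markers summed to 820 CPM in the Pde6ccpfl1 plate, 867 CPM in the Cnga3-/- plate and 326 CPM in the Wildtype plate, and 5 of them, Opn1sw and Gnat2 among them, had 0 counts in the Wildtype plate. The 12 rod markers summed to 759, 930 and 425 CPM in the same plates. Cone and rod marker sums were therefore higher in the mutant plates, as the picked genes were, and their part in the differences was not tested. Pde6c had 2, 5 and 0 counts and Cnga3 had 3, 13 and 22 counts in the Pde6ccpfl1, Cnga3-/- and Wildtype plates. Counts over a whole gene do not check an allele that may leave most of the transcript in place.

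Wells at the same plate position, such as F01, resembled each other across plates of different mouse lines. The plates had 70 listed positions in common between Pde6ccpfl1 and Cnga3-/-, 60 between Cnga3-/- and Wildtype and 57 between Pde6ccpfl1 and Wildtype. Log2(CPM + 50) of each gene was centred within its plate and correlated between wells of 2 plates. The Pde6ccpfl1 and Cnga3-/- plates shared 61 kept positions, and the median correlation was 0.29 between wells at the same position and -0.01 between wells at other positions. For the 50 positions kept in the Cnga3-/- and Wildtype plates these values were 0.30 and -0.01, and for the 43 kept in the Pde6ccpfl1 and Wildtype plates 0.29 and -0.01. Among the shared positions, the best match of a well was the well at its own position in 61 of 61, 50 of 50 and 43 of 43 cases, and this held with the 7 genes left out. The cause was not tested. Wells of different plates are thus not independent of each other, and the ratios between plates are given for all kept wells and for the 43 positions kept in all 3 plates, a comparison added after the data were seen.

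Il18 was present in every mutant well at a level that varied little. The Pde6ccpfl1 plate had 2171 Il18 counts (7359 CPM), the Cnga3-/- plate 10085 (30060 CPM) and the Wildtype plate 339 (1241 CPM). Per well, the count ran from 4 over a median of 26 to 134 in Pde6ccpfl1 wells, from 22 over 120 to 415 in Cnga3-/- wells and from 0 over 5.5 to 15 in Wildtype wells. The lowest Cnga3-/- well, at 15395 CPM, was above the highest Pde6ccpfl1 well, at 12444 CPM, so the mutant plates did not overlap in Il18 CPM. The lowest Pde6ccpfl1 well, at 2861 CPM, was just under the highest Wildtype well, at 2963 CPM. All 61 Pde6ccpfl1 wells, all 70 Cnga3-/- wells and 51 of 52 Wildtype wells had an Il18 count.

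The spread of Il18 over wells was narrow in the mutant plates. The coefficient of variation of its CPM was 0.30 in the Pde6ccpfl1 plate, 0.19 in the Cnga3-/- plate and 0.47 in the Wildtype plate. The highest well held only 6.17% of the gene's counts in the Pde6ccpfl1 plate, 4.12% in the Cnga3-/- plate and 4.42% in the Wildtype plate. A dispersion index was computed that is 1 where wells differ by counting noise around a constant share of their total. For Il18 it was 2.75 in the Pde6ccpfl1 plate, 5.35 in the Cnga3-/- plate and 1.02 in the Wildtype plate. Il18 counts followed the total counts of the well, with Spearman's rho of 0.94, 0.96 and 0.80 over the wells of the Pde6ccpfl1, Cnga3-/- and Wildtype plates.

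Il18 was the picked gene in which the mutant plates differed most from each other. Its CPM in the Pde6ccpfl1 plate was 0.245 of that in the Cnga3-/- plate (95% counting interval 0.234 to 0.256), a contrast the choice of the genes did not use. The same ratio was 0.254 at the 43 common positions. Relative to the Wildtype plate, Il18 was 5.93-fold higher in the Pde6ccpfl1 plate and 24.2-fold higher in the Cnga3-/- plate, and 6.21-fold and 24.4-fold higher at the common positions. Il18 was the only one of the 6 picked genes with no leading position, meaning no well that held 20% or more of its counts in both mutant plates.

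**Figure D1:**
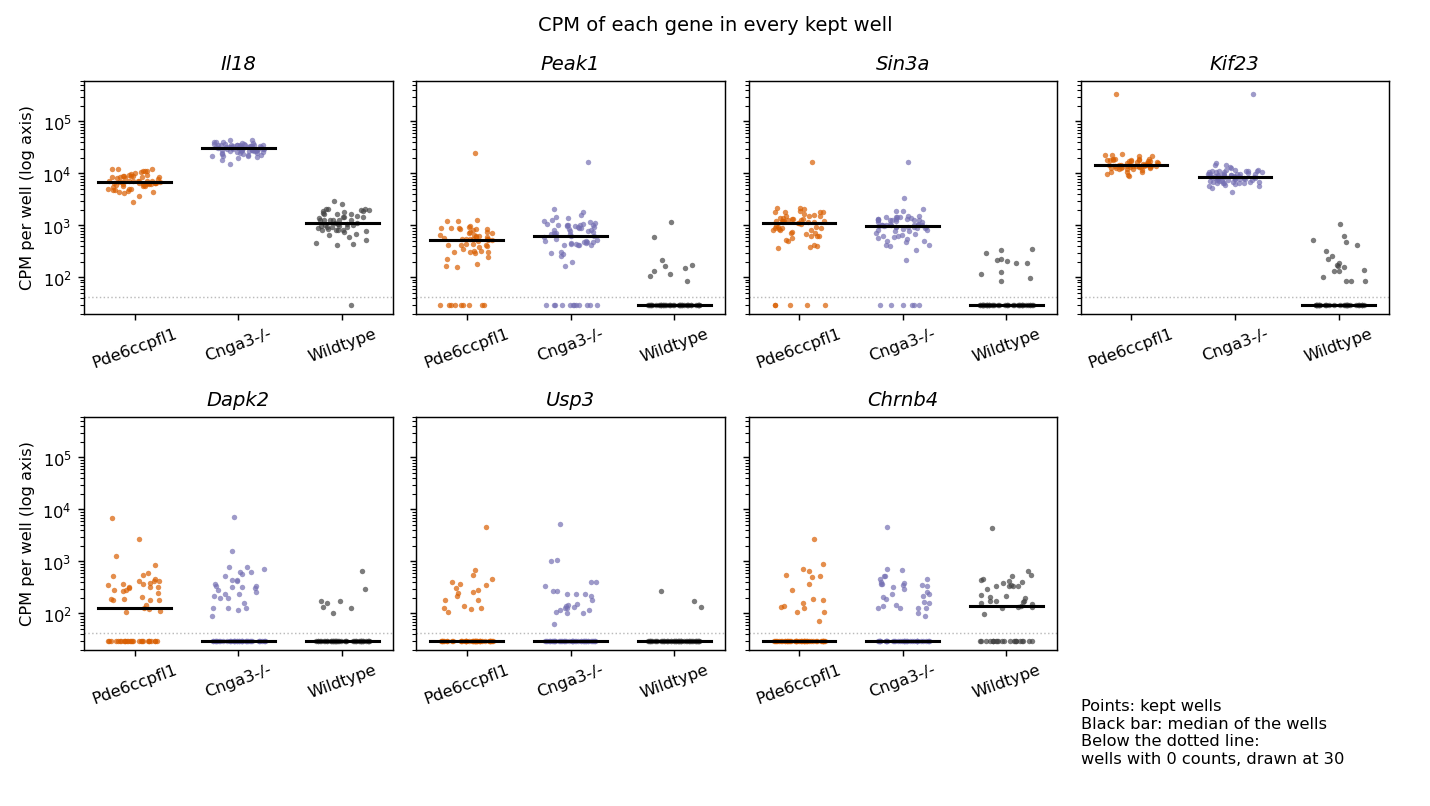
CPM of each gene (log axis) in every kept well of the Pde6ccpfl1 (61 wells), Cnga3-/- (70) and Wildtype (52) plates, with a black bar at the median and wells with 0 counts drawn at 30 under the dotted line. Il18 forms a narrow band in each mutant plate and a wider one in the Wildtype plate. Kif23, Sin3a, Peak1, Dapk2 and Usp3 each have 1 well per mutant plate far above the rest.

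Kif23 had 1 well per mutant plate far above the others. Well F01 held 4709 of the 9007 Kif23 counts in the Pde6ccpfl1 plate and 3751 of the 6608 in the Cnga3-/- plate, that is 52.3% and 56.8% of the gene's counts. In that well Kif23 alone took 33.7% of all counts in the Pde6ccpfl1 plate and 33.9% in the Cnga3-/- plate. Position F01 is not listed in the Wildtype plate, which had 27 Kif23 counts with at most 4 in a well. The remaining mutant wells were even: without F01 the coefficient of variation of CPM was 0.22 in the Pde6ccpfl1 plate and 0.25 in the Cnga3-/- plate, and the dispersion index was 2.99 and 2.21, against 753 and 860 with it, the highest of the 7 genes. Relative to its own mean, CPM varied less for Kif23 than for the sparse Usp3, with coefficients of variation of 2.01 and 2.90 for Kif23 and 3.79 and 3.88 for Usp3 in the Pde6ccpfl1 and Cnga3-/- plates.

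Outside F01, Kif23 was still in every mutant well. The count per well had its lowest value at 11, its median at 53 and, without F01, its highest value at 286 in the Pde6ccpfl1 plate, and in the Cnga3-/- plate these were 6, 36.5 and 156. In the Wildtype plate the median was 0 and 19 of 52 wells had a count. No mutant well was as low as the highest Wildtype well, which had 1054 CPM, while the lowest wells had 8863 CPM in the Pde6ccpfl1 plate and 4402 CPM in the Cnga3-/- plate. Kif23 was 309-fold higher in the Pde6ccpfl1 plate and 199-fold higher in the Cnga3-/- plate than in the Wildtype plate. At the 43 common positions, which leave F01 out, it was 165-fold and 95.4-fold higher. Between the mutant plates, the Pde6ccpfl1 level was 1.55 times the Cnga3-/- level (1.5 to 1.6) and 1.73 times at the common positions.

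Cell division genes were not abundant beside Kif23. The 7 markers of dividing cells summed to 68 counts in the Pde6ccpfl1 plate, 44 in the Cnga3-/- plate and 45 in the Wildtype plate, and none of the 7 was at 0 in any plate. Of 16 genes listed as Kif23 and its cytokinesis partners, 2 had at least 50 counts, Kif23 and the citron kinase gene Cit, which had 37, 25 and 14 counts. Kif23 was chosen for its ratios to the Wildtype plate, so its excess is not counted here. Cit was at least 2-fold higher in the Pde6ccpfl1 plate and not in the Cnga3-/- plate. Of the 2532 genes with at least 50 counts over the 3 plates, 13.4% and 14.1% were. Racgap1, which encodes the other subunit of centralspindlin, had 12, 16 and 12 counts in the Pde6ccpfl1, Cnga3-/- and Wildtype plates, and the anillin gene Anln had 22, 9 and 10.

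Sin3a was spread over most mutant wells with 1 leading position. It had 406 counts (1376 CPM) in the Pde6ccpfl1 plate, 441 (1314 CPM) in the Cnga3-/- plate and 16 (58.6 CPM) in the Wildtype plate. Well E02 held 99 of them in the Pde6ccpfl1 plate and 116 in the Cnga3-/- plate, 24.4% and 26.3% of the gene's counts, and E02 is not listed in the Wildtype plate. The median well had 4 counts in each mutant plate and 0 in the Wildtype plate, with a Sin3a count in 56 of 61, 64 of 70 and 12 of 52 wells. Without E02 the dispersion index was 0.91 in the Pde6ccpfl1 plate and 0.81 in the Cnga3-/- plate, close to counting noise alone. Sin3a was 23.5-fold and 22.4-fold higher than in the Wildtype plate, and 16.4-fold and 14.8-fold at the common positions.

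Usp3 was the sparsest of the picked genes. It had 52 counts in the Pde6ccpfl1 plate, 59 in the Cnga3-/- plate and 3 in the Wildtype plate, where each of 3 wells had 1. Well H04 held 29 and 31 of the mutant counts, 55.8% in the Pde6ccpfl1 plate and 52.5% in the Cnga3-/- plate, and is not listed in the Wildtype plate. Apart from H04, no mutant well had more than 2 Usp3 counts, and 19 of 61 and 25 of 70 wells had any. Usp3 was 16.0-fold higher in each mutant plate, with counting intervals of 5.20 to 80.3 in the Pde6ccpfl1 plate and 5.22 to 79.8 in the Cnga3-/- plate that reflect the 3 Wildtype counts. At the common positions it was 10.1-fold and 10.0-fold higher.

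Peak1 had 246 counts (834 CPM) in the Pde6ccpfl1 plate, 335 (999 CPM) in the Cnga3-/- plate and 19 (69.6 CPM) in the Wildtype plate. Its leading well was F03 in both mutant plates, with 94 and 115 counts, or 38.2% and 34.3% of the total, and F03 is not listed in the Wildtype plate. The next highest well had 12 counts in the Pde6ccpfl1 plate and 10 in the Cnga3-/- plate, and the medians were 1, 2 and 0 counts per well in the Pde6ccpfl1, Cnga3-/- and Wildtype plates. Without F03 the dispersion index was 0.76 and 1.18 in the mutant plates, against 44.5 and 25.3 with it. Peak1 was 12.0-fold higher in the Pde6ccpfl1 plate and 14.4-fold higher in the Cnga3-/- plate, and 6.86-fold and 9.20-fold higher at the common positions.

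Dapk2 shared its leading well with Sin3a. Of 102 Dapk2 counts in the Pde6ccpfl1 plate and 104 in the Cnga3-/- plate, 41 and 48 were in E02, which is 40.2% and 46.2%. The Wildtype plate had 10 Dapk2 counts, with at most 2 in a well. Dapk2 was seen in 34 of 61, 31 of 70 and 8 of 52 wells of the Pde6ccpfl1, Cnga3-/- and Wildtype plates. It was 9.44-fold higher in the Pde6ccpfl1 plate and 8.47-fold higher in the Cnga3-/- plate. At the common positions it was 5.89-fold higher in the Pde6ccpfl1 plate and 3.91-fold higher (1.84 to 9.24) in the Cnga3-/- plate, the only picked gene and plate under 4-fold there. Of the 6 picked genes, 5 were then at least 4-fold higher in both mutant plates, where 4.7% of all 2532 genes were. These wells are among those that chose the genes, so nothing is read from that count. In odd-numbered wells, which hold neither E02 nor H04 in the Cnga3-/- plate, Dapk2 was 2.64-fold and Usp3 3.06-fold higher there than in the Wildtype plate.

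**Figure D2:**
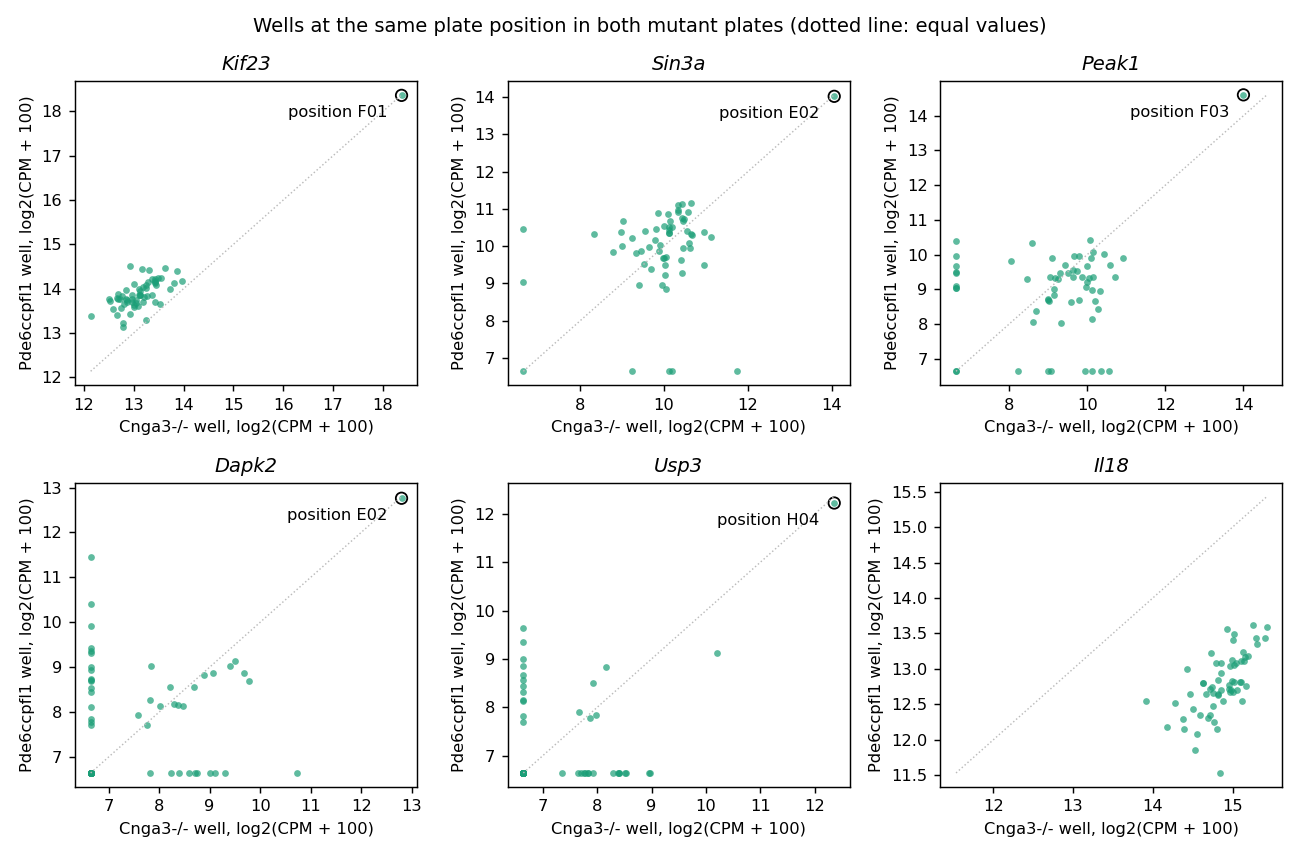
Log2(CPM + 100) of 6 genes in wells at the same plate position, with the Cnga3-/- well on the x axis and the Pde6ccpfl1 well on the y axis (61 positions, dotted line at equal values). Circles mark the leading positions F01, E02, F03 and H04, which stand apart in both plates at once, while Il18 has none and lies under the line throughout.

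Chrnb4 did not share the excess of the picked genes. It had 36 counts (122 CPM) in the Pde6ccpfl1 plate, 75 (224 CPM) in the Cnga3-/- plate and 71 (260 CPM) in the Wildtype plate, and was counted in 18 of 61, 32 of 70 and 30 of 52 wells. Its CPM in the Pde6ccpfl1 plate was 0.469 of the Wildtype value (0.305 to 0.710), where 14.5% of all genes were at least 2-fold lower. In the Cnga3-/- plate the ratio to Wildtype was 0.860 (0.613 to 1.21), an interval that includes equality. The leading well was F07 in all 3 plates, with 9, 21 and 22 counts, or 25%, 28% and 31.0% of the gene's total. Without F07 the dispersion index was 1.44, 1.08 and 0.76. At the common positions the ratios to Wildtype were 0.482 in the Pde6ccpfl1 plate and 0.974 in the Cnga3-/- plate. The Pde6ccpfl1 ratio was above 0.5 with 3 other scalings of the plates (0.502 to 0.519), as a mean of per-well CPM (0.557), without the 5 leading positions named further on (0.544), in odd-numbered wells (0.623) and in wells with a cone marker, where it was 0.775. In wells with a cone marker the Cnga3-/- ratio was 1.43.

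Scaled by exon length, the order of the genes was the same in both mutant plates. By CPM alone it was not. Kif23 was above Il18 in the Pde6ccpfl1 plate (30531 against 7359 CPM), and Il18 was above Kif23 in the Cnga3-/- plate (30060 against 19696 CPM). Per kilobase of exon, which assumes that reads fall along the whole transcript, the CPM in the Pde6ccpfl1 plate was 7138 for Il18, 3864 for Kif23, 256 for Sin3a, 98.4 for Dapk2, 67.5 for Peak1, 32.8 for Chrnb4 and 25.7 for Usp3. In the Cnga3-/- plate the same quantity was 29156 for Il18, 2493 for Kif23, 244 for Sin3a, 88.3 for Dapk2, 80.8 for Peak1, 60.0 for Chrnb4 and 25.7 for Usp3. In the Wildtype plate Il18 was first at 1204 and Chrnb4 followed at 69.8, while Kif23, Sin3a and Dapk2 lay together at 12.5, 10.9 and 10.4, above Peak1 at 5.63 and Usp3 at 1.6. In this order per kilobase, Chrnb4 was sixth of 7 in each mutant plate and second in the Wildtype plate. Counting intervals of neighbours in this order overlapped for Chrnb4 and Usp3 in the Pde6ccpfl1 plate, for Dapk2 and Peak1 and for Peak1 and Chrnb4 in the Cnga3-/- plate, and from Kif23 to Usp3 in the Wildtype plate.

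Together, the 6 picked genes took 11984 counts in the Pde6ccpfl1 plate, 17632 in the Cnga3-/- plate and 414 in the Wildtype plate. Their sum was 26.8-fold and 34.7-fold higher than in the Wildtype plate, and 16.5-fold and 27.0-fold higher at the common positions. The Pde6ccpfl1 sum was 0.773 of the Cnga3-/- sum, the balance of more Kif23 and less Il18. In odd-numbered wells alone this ratio turned to 1.25, and in even-numbered wells it was 0.392. Kept wells were numbered in table order, which put F01 among the odd wells of the Pde6ccpfl1 plate and the even wells of the Cnga3-/- plate. Leaving out the 5 leading positions F01, E02, F03, H04 and F07 gave 0.606. Without these positions, all 6 picked genes were at least 4-fold higher in both mutant plates, where 6.28% of the 2532 genes with at least 50 counts were, and again nothing is read from a count in wells that chose them. In all kept wells the share of genes at least 4-fold higher was 8.02% for the Pde6ccpfl1 plate alone and 8.25% for the Cnga3-/- plate alone, and nothing is read from the members' count there, since it chose them. Between the mutant plates, none of the 7 genes was at least 2-fold higher in the Pde6ccpfl1 plate, where 6.6% of genes were, and Il18 alone was at least 2-fold lower, where 10.7% were.

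**Figure D3:**
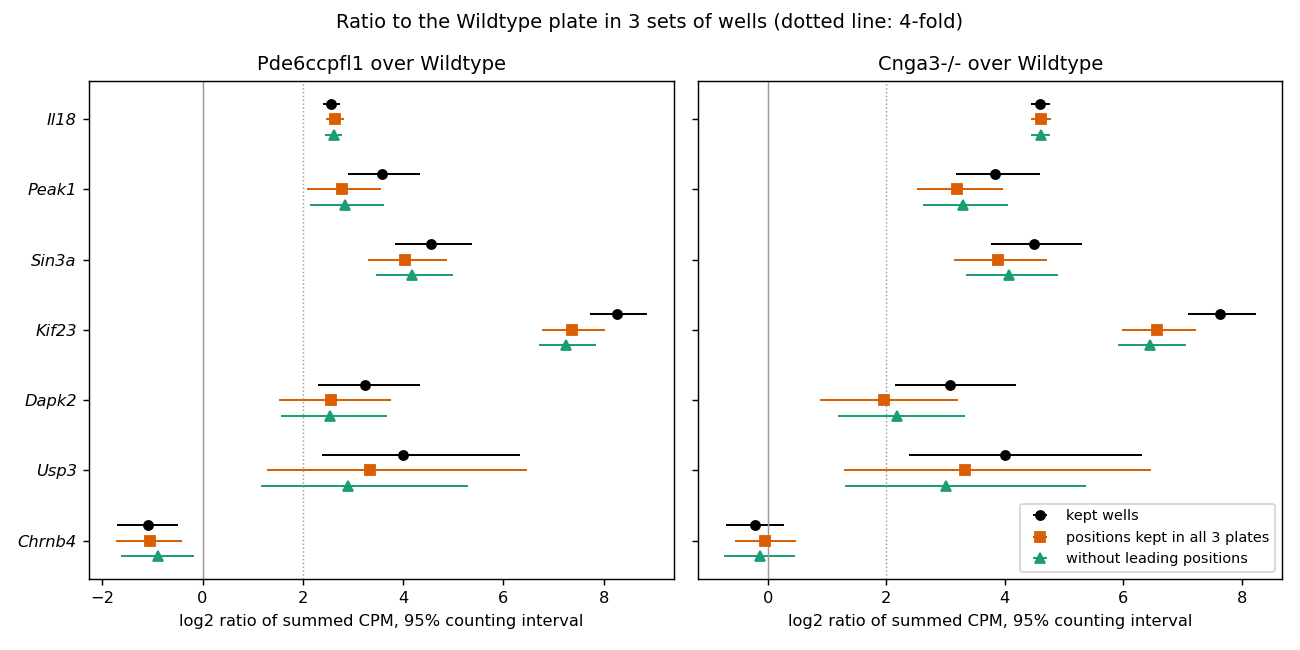
Log2 ratio of summed CPM of each gene to the Wildtype plate, Pde6ccpfl1 on the left and Cnga3-/- on the right, with 95% counting intervals, for all kept wells, for the 43 positions kept in all 3 plates and without the 5 leading positions. The Il18 values hardly move between the 3 sets of wells, and the Chrnb4 values lie at or under 0 in each.

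Detection was compared after each well was thinned to 1400 counts, which leaves 54 Pde6ccpfl1, 65 Cnga3-/- and 48 Wildtype wells. Il18 and Kif23 were then still in every mutant well, while Il18 was in 91.7% and Kif23 in 12.5% of Wildtype wells. Sin3a was in 79.6% of Pde6ccpfl1, 89.2% of Cnga3-/- and 8.33% of Wildtype wells, and Peak1 in 48.1%, 56.9% and 12.5%. Dapk2 was in 24.1%, 21.5% and 4.17% of wells. Chrnb4 ran the other way, with 7.41%, 16.9% and 25%, where the exact 95% intervals of the Pde6ccpfl1 plate (2.06% to 17.9%) and the Wildtype plate (13.6% to 39.6%) overlapped.

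Of the 6 picked genes, the median kept well had 5 in the Pde6ccpfl1 plate, 4 in the Cnga3-/- plate and 2 in the Wildtype plate. All 6 were found in 11, 15 and 0 kept wells. In thinned wells the medians were 4, 4 and 1 in the same order of plates. All 6 were then found in 0 of 54, 1 of 65 and 0 of 48 wells. Peak1 and Sin3a met in 48 kept Pde6ccpfl1 wells, where the product of their shares gives 47.7. They met in 54 kept Cnga3-/- wells, where it gives 53.0. In the Wildtype plate they met in 5 wells, where it gives 2.31. The sparser genes met more often than the product in the Cnga3-/- plate, Dapk2 and Usp3 in 16 wells against 11.1 and Dapk2 and Chrnb4 in 20 against 14.2. In thinned Cnga3-/- wells those counts were 2 against 1.94 and 1 against 2.37. Dapk2 and Chrnb4 met in 14 Pde6ccpfl1 wells against 10.0, and in 2 against 0.963 after thinning. Peak1 and Sin3a met in 2 thinned Wildtype wells against 0.5. All of the thinned pair counts rest on few wells.

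In rank correlations of CPM over the wells of a plate, given as a description since wells share library and sort, the median of the 21 gene pairs was -0.01 in the Pde6ccpfl1 plate, 0.06 in the Cnga3-/- plate and 0.07 in the Wildtype plate, and 0.08, 0.05 and 0.03 at the 43 common positions. Il18 and Kif23 were the exception, at 0.51 and 0.55 in the Pde6ccpfl1 and Cnga3-/- plates and 0.03 in the Wildtype plate, where Kif23 was 0 in most wells. No other pair was above 0.33 in size in any plate. Il18 and Kif23 were also the genes whose CPM agreed most between mutant plates at the same position, with rho of 0.68 for Il18 and 0.64 for Kif23 over 61 positions, and 0.62 for Kif23 without F01. The same correlation was 0.29 for Sin3a, 0.10 for Dapk2, 0.09 for Peak1, 0.09 for Chrnb4 and 0.02 for Usp3. These genes had a median of at most 4 counts per mutant well, highest for Sin3a. Counts this low limit how high either kind of correlation can come out, so their low values are not read as a lack of relation.

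**Figure D4:**
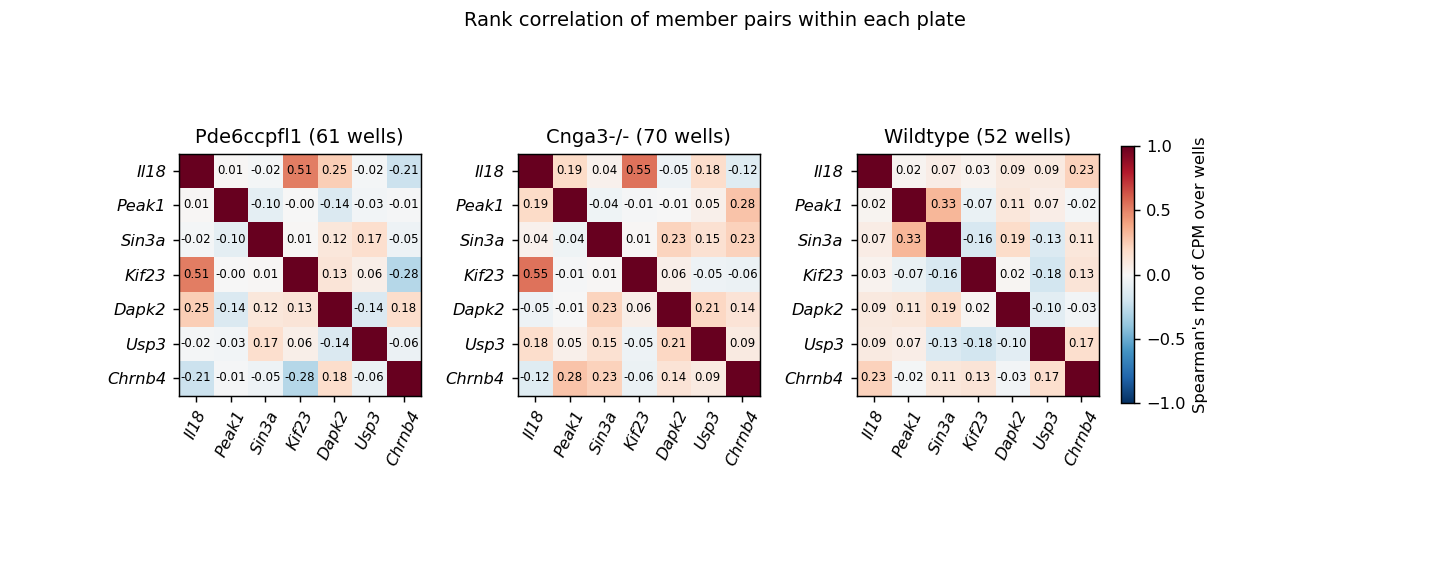
Spearman's rho of CPM over the kept wells for each pair of the 7 genes, in the Pde6ccpfl1, Cnga3-/- and Wildtype plates (colour from -1 to 1, value in each cell). Only Il18 and Kif23 pass 0.5, in both mutant plates and not in the Wildtype plate.

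Among 471 genes with at least 200 counts, which leave out the 7 genes themselves, the gene whose levels over mutant wells were most like those of Il18 was also the one most like Kif23. This was Smtnl1 on chromosome 2, which encodes a smoothelin-like protein of muscle. Its mean rho over the 61 Pde6ccpfl1 and 70 Cnga3-/- wells was 0.56 with Il18 and 0.58 with Kif23. Smtnl1 had 8095 counts in the Pde6ccpfl1 plate, 2952 in the Cnga3-/- plate and 8 in the Wildtype plate. Next was Add2, which encodes the membrane skeleton protein beta adducin, at 0.38 with Il18 and 0.34 with Kif23, and its counts were 2573, 2726 and 2918. For the other 5 genes, which had few counts in most wells, the highest mean rho was 0.36, of the dynein gene Dnah1 with Dapk2.

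Of 53 genes within 15 Mb of Chrnb4 with at least 50 counts, 9 (17.0%) were at least 4-fold higher in both mutant plates, as were 177 of all 2532 genes, 6.99%. The picked genes are 6 of these 9, and nothing is read from that share, since the rule chose them. The other 3 were Rora, a nuclear receptor gene, with 566, 440 and 60 counts in the Pde6ccpfl1, Cnga3-/- and Wildtype plates, Slc35f2, a transporter gene, with 20, 50 and 4, and Acsbg1, an acyl-CoA synthetase gene, with 12, 40 and 2. Each of the 3 was led by 1 position shared by the mutant plates, G05, F03 and D01 in that order. The nearest gene inside the limit was Slc35f2, 4.63-fold higher in the less changed plate, and the nearest outside it was Rbpms2, 3.46-fold higher with 58, 34 and 8 counts.

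Of the 46 genes in the window that were not among the 7, 34 were within 2-fold of the Wildtype plate in both mutant plates, 4 were at least 2-fold higher in both and 3 at least 2-fold lower in both. Over all 2532 genes, 63.6% were within 2-fold in both, 11.3% were at least 2-fold higher in both and 5.33% at least 2-fold lower in both. The median log2 ratio of the 46 was -0.35 in the Pde6ccpfl1 plate and -0.32 in the Cnga3-/- plate, beside -0.11 and -0.24 over all 2532 genes and 3.79 and 4.24 over the 6 picked genes. Immediate neighbours had few counts. Of 26 genes next to a member, taking 2 on each side, 25 were in the table, 13 had under 10 counts, 1 of them at 0, and 1 had at least 50. That 1 was Herc1, between Dapk2 and Usp3, with 14, 29 and 40 counts in the Pde6ccpfl1, Cnga3-/- and Wildtype plates. Beside Kif23, the ribosomal protein gene Rplp1 had 19, 11 and 1 counts, and Tle3 ran the other way with 8, 15 and 17. Both had under 50 counts and were not compared. The 4 neighbours of Chrnb4 were too rare to compare, at 1 count for Chrna5, 11 for Chrna3, 8 for Ube2q2 and 10 for Fbxo22 over the 3 plates.

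**Figure D5:**
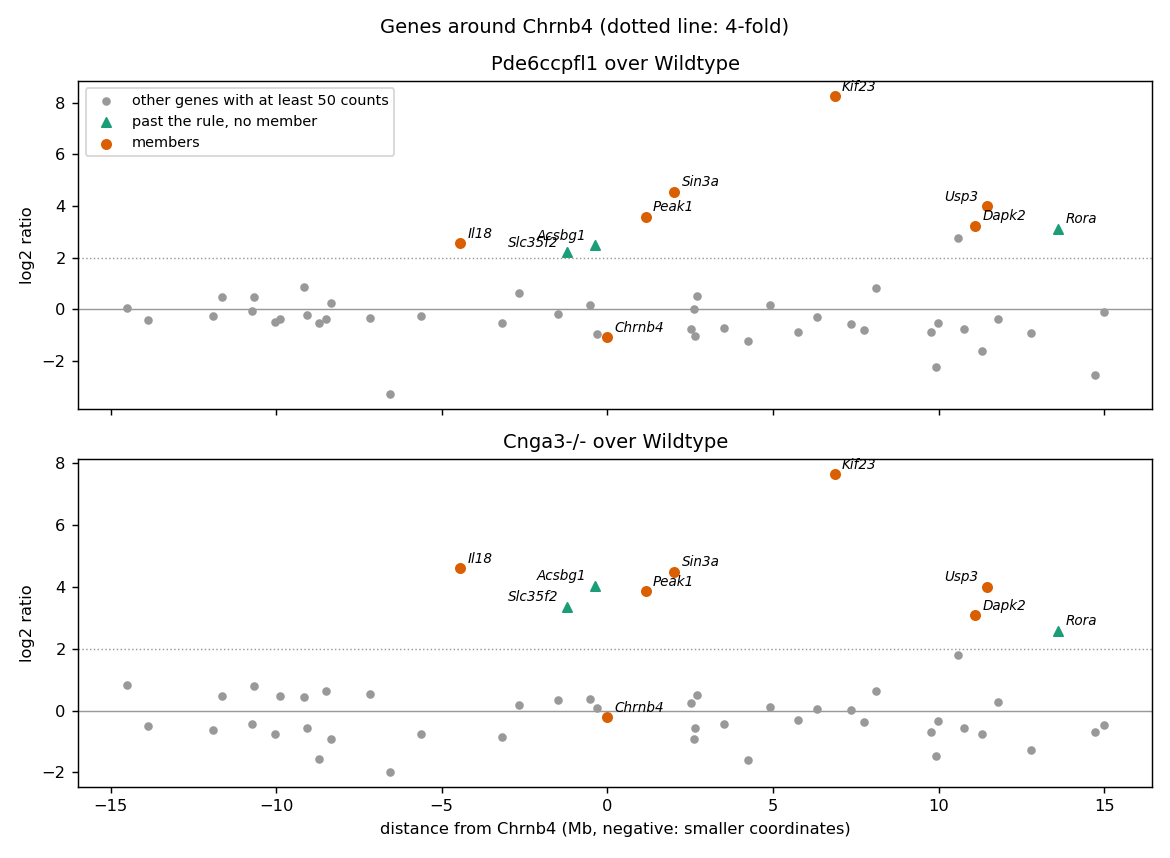
Log2 ratio to the Wildtype plate of the 53 genes within 15 Mb of Chrnb4 with at least 50 counts, by distance from Chrnb4 in Mb, Pde6ccpfl1 above and Cnga3-/- below, with a dotted line at 4-fold. The 6 picked genes and 3 others lie above the line in both panels, among genes that scatter around 0. Rbpms2 lies above it in the Pde6ccpfl1 panel alone.

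The partners of the picked genes were counted too rarely to compare for the most part. Of 16 genes of the interleukin 18 pathway, 3 had at least 50 counts: Il18, the adaptor gene Myd88 with 43, 47 and 42 counts in the Pde6ccpfl1, Cnga3-/- and Wildtype plates, and the cytokine gene Il1b with 37, 47 and 14. Il18, chosen for this ratio, and Il1b were at least 2-fold higher in both mutant plates, where 11.3% of all genes were, and none of the 3 was 2-fold lower. Casp1 had 0, 1 and 0 counts, the receptor gene Il18r1 had 7, 5 and 6 and Ifng had none. The 7 microglia markers, which would come with inflammatory cells, summed to 7, 12 and 9 counts, with 4, 2 and 3 of the 7 at 0.

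Of 17 genes of the Sin3 complex, Sin3a alone had at least 50 counts, while the histone-binding gene Rbbp4 had 17, 27 and 5 and the deacetylase gene Hdac1 had 4, 7 and 3. Of 9 genes of the histone H2A deubiquitinase list, Usp3 and Mysm1 had at least 50, and Mysm1 had 73, 40 and 72 counts, at least 2-fold lower in the Cnga3-/- plate, where 11.2% of all genes were. Of 9 genes listed with the death associated protein kinases, Dapk2 alone had at least 50, and Dapk1 had 5, 6 and 4. Of 8 genes of the PEAK list in the table, 3 had at least 50 counts. These were Peak1, the adaptor gene Crkl with 39, 66 and 40 counts and the pseudokinase gene Prag1 with 22, 18 and 16. Crkl and Prag1 were within 2-fold of the Wildtype plate in both mutant plates, where 63.6% of all genes were. Peak1 was chosen for its ratios to that plate. Of 16 nicotinic receptor subunit genes, 3 had at least 50 counts. Beside Chrnb4 these were the muscle subunit genes Chrna1, with 34, 37 and 53, and Chrnd, with 24, 16 and 17. Chrna3, next to Chrnb4 in the genome, had 3, 7 and 1, and none of the 3 compared genes was 2-fold higher in either mutant plate, where 13.4% and 14.1% of all genes were. Chrnb4 alone of the 3 was at least 2-fold lower in the Pde6ccpfl1 plate, where 14.5% were, and none was in the Cnga3-/- plate, where 11.2% were.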

How the data were processed

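The authors deposited 1 table of raw counts per gene and well, counted with featureCounts per the submitters' processing notes, which give no version. The notes name the build GRCh38, which is human, while the table lists mouse symbols, 98.1% of them (30464 of 31053) matching GENCODE M21 for GRCm38. The stated build was therefore set aside. The aligner, strand setting and handling of molecular identifiers are not given in the sources used here, so a count need not be 1 molecule, and each interval or floor covers counting error alone. Wells were assigned to plates by name, and 0 columns were left unused. Doublets were not called, as sorting placed single cells in wells.

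Counts of kept wells (183 of 208) were summed per plate as CPM with Python 3.11.15 and SciPy 1.17.1. Ratios have exact 95% intervals conditional on the summed count. A plate with 0 counts was set to a floor of 3. Ratios used genes with at least 50 counts over the 3 plates. The interval method was tested on simulated plate sums with counting noise alone, so that test does not cover spread between wells. Named genes were the 7 members, other genes past the same limit in the window, the 3 most alike genes per member, neighbours and up to 3 genes per list. A few others (Casp1, Il18r1, Ifng, Hdac1, Dapk1, Chrna3 and Rbpms2) were named after their values were seen, and some genes under the rule are not reported here. The members and lists were chosen with earlier results of these data known. Factors of the TMM method came from edgeR 4.0.16. The alternatives were other well filters, scalings, thinning, subsets of wells, gene filters, folds and windows.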

Additional observations from a re-analysis of the deposited data

Results flagged for a closer look

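The wells that missed the filter carried Il18 and Kif23 too, which is signal in wells that the report's comparisons leave out. In the 10 left-out Pde6ccpfl1 wells Il18 reached 6307 CPM (52 of 8245 counts, in 10 of 10 wells), and in the 6 left-out Cnga3-/- wells 34955 CPM (166 of 4749 counts, in 6 of 6 wells), against 697 CPM (5 of 7174 counts) in the 9 left-out Wildtype wells. The kept wells of the same plates had 7359, 30060 and 1241 CPM. Kif23 reached 15767 CPM in the left-out Pde6ccpfl1 wells (130 counts, in 10 of 10) and 6949 CPM in the left-out Cnga3-/- wells (33 counts, in 5 of 6), against 0 of 7174 counts in the left-out Wildtype wells, which allows up to 418 CPM. Shallow wells thus held both genes at a level near that of the typical kept well of their plate, whose median Kif23 level was 14674 CPM in the Pde6ccpfl1 plate and 8729 CPM in the Cnga3-/- plate.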

How the results depend on the processing

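No paired analysis was possible because each genotype has 1 plate and the labels give no replicate number, and no replicate could be left out. Wells at the same position were compared as a description. Each member kept its direction against the Wildtype plate in all alternatives run, except Chrnb4 in the Cnga3-/- plate, whose log2 ratio ran from -0.60 to 0.52. The alternatives reuse the wells that chose the 6 picked genes, so nothing is read from their kept direction. The log2 ratio of the 6-gene sum, Pde6ccpfl1 over Wildtype, was 4.74 and became 4.35 as a mean of per-well CPM, 4.89 with median-of-ratios factors, 4.39 thinned, 5.08 in odd and 4.02 in even wells, 4.05 without the 5 deepest wells, 4.13 without the 5 highest wells, 4.91 in wells with a cone marker, 4.04 at common positions and 4.03 without the leading positions. Cnga3-/- over Wildtype was 5.12 and became 4.97, 5.34, 4.76 (odd), 5.37 (even), 4.76 (deepest), 4.85 (highest), 4.76 (common) and 4.76 (no leading positions). Pde6ccpfl1 over Cnga3-/- was -0.37, and became -0.33 with a stricter well filter, -0.62 as a mean, -0.45 with median-of-ratios factors, -0.61 thinned, 0.32 in odd and -1.35 in even wells, -0.72 without the deepest and -0.72 without the highest wells, -0.71 at common positions and -0.72 without leading positions. Single genes turned in the same contrast: Peak1 from -0.26 to 0.047 as a mean and 0.98 in even wells, Sin3a from 0.07 to -0.76, Dapk2 from 0.16 to -1.38 and Usp3 from 0.0033 to -1.43 in even wells, and Kif23 from 0.63 to -1.02 in even wells, which hold F01 of the Cnga3-/- plate and not of the Pde6ccpfl1 plate. E02, which led Sin3a and Dapk2, and H04, which led Usp3, fell in the same way as F01. F03, which led Peak1, fell the other way round. The part of these positions in the shifts, and the cause of any other shift, was not tested. The 9 of 53 genes of the window became 20 of 189 with a gene filter of 10 counts and 20 of 410 with none. They became 5 of 53 at 8-fold and 5 of 18 within 5 Mb. Over all genes the share was computed only for 4-fold and at least 50 counts, at 6.99%, so nothing is read from these counts. Of 84 summary values under alternatives, 52 stayed within their spread or limit, the pair correlations among them. Low counts limit precision: 3 Usp3 counts in the Wildtype plate leave its fold uncertain by more than 10 times.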

Other observations

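The pattern of a single leading well was not particular to the chromosome 9 genes. Of 736 genes with at least 50 counts in the Pde6ccpfl1 plate, 615 (83.6%) had 1 well with at least 25% of their counts, as did 720 of 849 (84.8%) in the Cnga3-/- plate and 610 of 761 (80.2%) in the Wildtype plate. Where such a well led a gene and its position was kept in another plate, the same position led there for 97.1% to 98.4% of genes, where 1 position is 1.43% to 1.92% of the wells. These measures were added after the data were seen.

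Which genes passed the 4-fold limit went with whether the Wildtype plate keeps their leading position. Of 1445 genes led by 1 position shared by the mutant plates that the Wildtype plate keeps, 1 was at least 4-fold higher in both mutant plates (0.0692%). Of 310 genes led by a position it does not keep, 152 were (49.0%). These 152 are 85.9% of the 177 genes past the limit, and 5 of the 6 picked genes are among them. At the 43 positions kept in all 3 plates, 119 of the 2532 genes (4.7%) were past the limit. The cause of the shared positions was not tested.

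A further 24 of the 777 genes with no such position (3.09%) were past the limit, and Il18 had the most Cnga3-/- counts of them. Smtnl1 was the next, with 8095, 2952 and 8 counts in 61 of 61 Pde6ccpfl1, 70 of 70 Cnga3-/- and 8 of 52 Wildtype wells. Photoreceptor genes were among the 24, named here after their values were seen: the short-wave cone opsin gene Opn1sw with 27, 63 and 0 counts, the cone transducin gene Gngt2 with 43, 22 and 0, and the rod phosphodiesterase gene Pde6g with 45, 50 and 1. Each of the 3 was spread over wells, with at most 16.3% of its counts in 1 well of a mutant plate. The opsin kinase gene Grk1, with 31, 39 and 39 counts, and the rod phosphodiesterase gene Pde6a, with 21, 34 and 42, were not past the limit, and Cnga3, with 3, 13 and 22, and the rod factor gene Nrl, with 9, 6 and 11, had under 50 counts and were not compared.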
